A study of Homo sapiens with 4 samples.

Results

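Noncanonical miRNAs are small RNAs that reach Argonaute while skipping either DROSHA or DICER. The names taken under that heading here were the miR-320 family, miR-484, the mirtron miR-877 and miR-451a, and how each is made was not measured. Members were taken by name: every listed isoform of hsa-miR-320b, hsa-miR-320c, hsa-miR-320d, hsa-miR-484, hsa-miR-877-5p, hsa-miR-877-3p and hsa-miR-451a, and every name that begins with hsa-miR-320a. This gave 9 of 1644 miRNA names and 119 of 12689 isoforms, where an isoform is 1 combination of a 5p end and a 3p end. Small RNAs were sequenced from HCT116, an established human colon carcinoma cell line, after transfection with pCDNA3 plasmids. By the study's list of plasmids, the empty library had pCDNA3 without an insert. The wild-type library had plasmids for 8 wild-type pri-miRNAs (pri-mir-30a, pri-mir-142, pri-mir-30d, pri-mir-576, pri-mir-885, pri-mir-128-1, pri-mir-342 and pri-mir-200b) with pri-mir-16-1 as a normalizer. The mutant 1 library had sequence variants of those 8 with pri-mir-16-1, and the mutant 2 library had 1 variant of pri-mir-342 with pri-mir-16-1 and empty vector. No member is named among the plasmids. The counts differ from the list in part. Both arms of pri-mir-182, which is annotated as a construct and is not in the list, were left out of the untransfected miRNAs: miR-182-5p had 622484 (empty), 2558700 (wild-type), 4349870 (mutant 1) and 678754 (mutant 2) reads. In the mutant 2 library a pri-mir-128-1 variant had 65088 reads, a let-7d variant 5966 and miR-128-1-5p 232585, beside 2, 1 and 2003 reads in the empty library. Which plasmids each library had is therefore uncertain. Each group had 1 library, so no difference between groups has a replicate check, no test was made, and the 3 comparisons share the empty library.

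Most miRNAs are cut from a primary transcript by DROSHA in the nucleus and then by DICER in the cytoplasm. A capped hairpin begins at the transcription start, so transcription and not DROSHA sets its 5p end, and DICER then makes the miRNA. A mirtron is a short intron whose ends are set by splicing, whereas pre-miR-451a is cut by DROSHA, sliced by AGO2 in place of DICER and then trimmed at its 3p end.

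The mature sequences below are those whose ends the results describe, with the seed (bases 2 to 8) in capitals. They came from RefSeq (build GRCh38.p14), which gave a sequence for 6 of the 9 names. In the miR-320 family, miR-320b, miR-320c and miR-320d shared 1 seed, and the first of these is at chr1:116671787-116671808 (plus strand) in MIR320B1 and at chr1:224257049-224257070 (minus strand) in MIR320B2, within intron 18 of NVL. For miR-320c, the copy shown lies in MIR320C1 at chr18:21683559-21683578 (plus strand), antisense to intron 4 of ABHD3.
miR-320b: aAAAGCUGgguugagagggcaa
miR-320c: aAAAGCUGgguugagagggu

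The remaining mature sequences each had a seed of their own among the 6. For miR-484, the mature miRNA lies at chr16:15643301-15643322 (plus strand), in a hairpin that begins 27 nt downstream of an annotated start of NDE1. The loci of miR-320b, miR-320c and miR-320d lay 43303 nt or more from the nearest annotated start of a coding gene on their strand. Starts of noncoding transcripts and starts on the other strand were not examined. Whether these are capped hairpins was therefore not tested. For miR-877, the hairpin lies at chr6:30584332-30584417 (plus strand) and fills intron 13 of ABCF1 exactly, from its first base to its last.
miR-484: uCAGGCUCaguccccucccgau
miR-877-5p: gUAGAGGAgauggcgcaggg
miR-877-3p: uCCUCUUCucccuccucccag

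The MIR877 hairpin is shown whole because both of its ends are splice sites, with the first 2 and last 2 bases of the intron in capitals. Of 1560 RefSeq hairpins, 23 (1.47%) filled an annotated intron exactly.
MIR877 hairpin: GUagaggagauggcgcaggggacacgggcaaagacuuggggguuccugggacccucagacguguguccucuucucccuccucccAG

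The libraries held 14544516 (empty), 17364117 (wild-type), 19834361 (mutant 1) and 17136599 (mutant 2) miRNA reads. Names set as transfected took 7.999%, 29.5%, 29.3% and 11.7% of these, in the same order, with the cells' own reads of those names included. Levels are therefore given as reads for every 1000000 reads of untransfected miRNAs (RPM). Variant sequences had 41 (empty), 35 (wild-type), 581238 (mutant 1) and 120309 (mutant 2) reads, so they were near 0 in the empty and wild-type libraries. The members together took 0.709%, 0.958%, 0.790% and 0.837% of untransfected reads. Markers of colon epithelium (miR-192-5p, miR-194-5p, miR-200c-3p, miR-141-3p and miR-215-5p) were all present and summed to 23372 (empty), 24152 (wild-type), 21242 (mutant 1) and 22695 (mutant 2) RPM, with miR-141-3p the most abundant. The muscle markers miR-1-3p and miR-133a-3p and the neuronal miR-124-3p were at 0 reads in all 4 libraries, while the neuronal miR-9-5p had 7 to 10 reads and the liver marker miR-122-5p had 8 to 15.

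In the miR-320 family, hsa-miR-320b was the most abundant member, at 3211 RPM in the empty, 4494 in the wild-type, 3430 in the mutant 1 and 3775 in the mutant 2 library. miR-320a-3p was close to it, at 2908, 3831, 3300 and 3412 RPM in the same order. How reads were divided between miR-320b and miR-320a-3p is uncertain (below), so their order is too. Both were lowest in the empty library on this scale, an order that scaling to all miRNA reads changed for the mutant 1 library and scaling to miR-16-5p changed for all 3 (below), and in the empty library they ranked 39 and 41 of 1315 untransfected miRNAs with reads. hsa-miR-484 had 617 RPM in the empty, 809 in the wild-type, 771 in the mutant 1 and 752 in the mutant 2 library. The other family members were rare: hsa-miR-320c had 106 to 140 reads, hsa-miR-320d had 2 to 5, miR-320a-5p had 0 to 9, and miR-320e, a relative outside the rule, had 1 read in the mutant 1 library and 0 elsewhere.

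Of the mirtron, hsa-miR-877-5p had 340 RPM in the empty, 426 in the wild-type, 384 in the mutant 1 and 406 in the mutant 2 library. hsa-miR-877-3p was far less abundant, with 59, 132, 96 and 128 reads, or 4.41, 10.8, 6.84 and 8.46 RPM. hsa-miR-451a, the member made without DICER, had 19, 29, 38 and 39 reads, or 1.42, 2.37, 2.71 and 2.58 RPM. Of its cluster partners in erythroid cells, miR-144-5p had 3 to 15 reads and miR-144-3p had 1 to 4. The remaining marker of the erythroid list, miR-486-5p, was higher, with 122 (empty), 109 (wild-type), 165 (mutant 1) and 162 (mutant 2) reads.

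**Figure D1:**
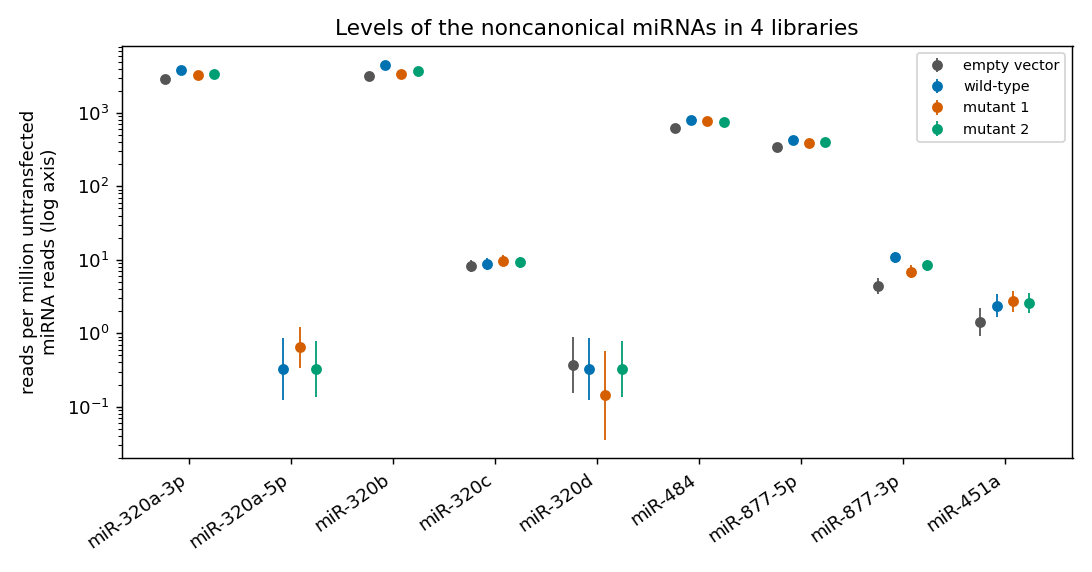
Levels of the 9 members in RPM (log axis). Each point is 1 library and each bar its 95% counting interval; a point at 0 reads is not drawn. miR-320b and miR-320a-3p lie highest in all 4 libraries.

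Levels were then compared with the empty library. Intervals are 95% intervals of the log2 ratio, and here and below all intervals cover counting error only, not the spread between libraries. They treat each read as an independent count. Reads copied by PCR are not independent molecules, so the intervals may be too narrow. Ratios were counted only for the 6 of 9 members with a mean of at least 50 reads, and a ratio past 2-fold in either direction was called. In the wild-type library 1 of 6 members was called, beside 1.89% of all 476 untransfected miRNAs with that many reads. That member was miR-877-3p, with a log2 ratio of 1.29 (0.85 to 1.73), so that its interval reached below 2-fold. Its ratio was 0.91 when scaled to all miRNA reads and 0.25 when scaled to miR-16-5p, and was then not called. The other 5 had log2 ratios from 0.09 (miR-320c) to 0.48 (miR-320b). In the mutant 1 library 0 of 6 were called, beside 3.99% of all, and in the mutant 2 library 0 of 6, beside 1.68% of all. miR-877-3p had a log2 ratio of 0.63 (0.17 to 1.10) in the mutant 1 library and 0.94 (0.49 to 1.38) in the mutant 2 library, which became -0.42 and -0.35 when scaled to miR-16-5p.

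Direction depended on the scaling. All 6 members were above 0 in each of the 3 libraries on this scale, with medians of 0.39 (wild-type), 0.22 (mutant 1) and 0.24 (mutant 2) beside 0.09, -0.02 and 0.06 for all 476 miRNAs, of which 292, 229 and 271 were above 0. With edgeR's TMM 5, 6 and 6 members were above 0, in the same order, beside 217, 274 and 248 of all, with medians of 0.28, 0.34 and 0.20 beside -0.03, 0.11 and 0.01 for all. Scaled to all miRNA reads 4, 1 and 6 were above 0, beside 92, 78 and 238 of all, with medians of 0.01, -0.16 and 0.19 beside -0.30, -0.40 and -0.0010 for all. Scaled to miR-16-5p 1, 0 and 0 were above 0, beside 6, 8 and 1 of all, with medians of -0.64, -0.83 and -1.05 beside -0.95, -1.07 and -1.24 for all. A scaling shifts all miRNAs of a library by 1 amount, so the distance from the median of all does not depend on it. miR-16-5p, whose pri-miRNA is in the list for every library except the empty one, had 16944 RPM in the empty and 34753, 35128 and 41556 RPM in the other libraries.

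**Figure D2:**
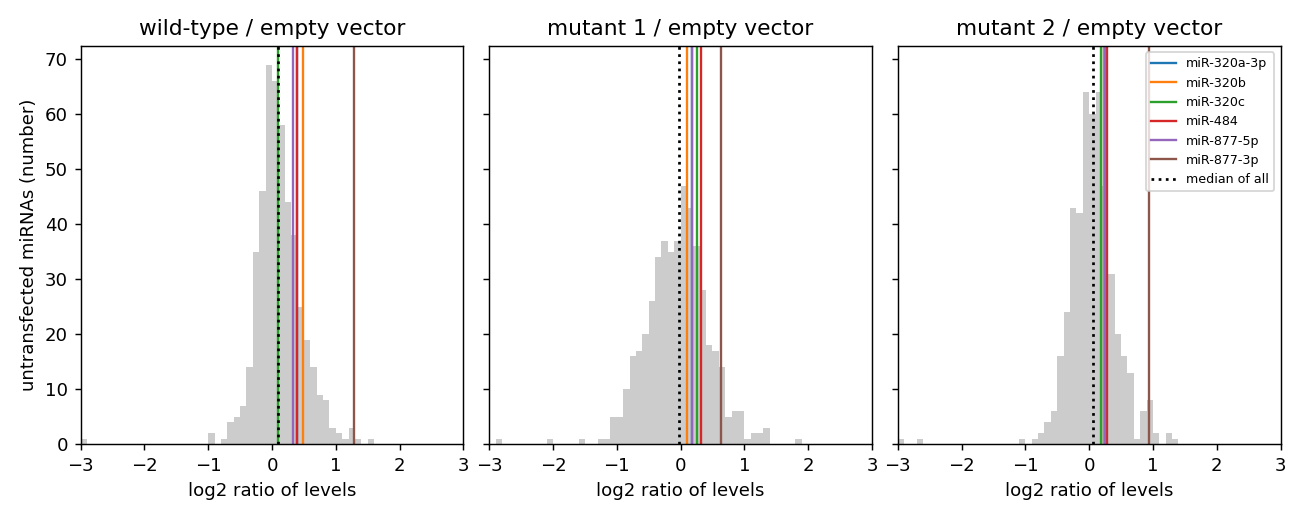
Log2 ratio of each library to the empty library for 476 untransfected miRNAs (grey bars, number of miRNAs), with 6 members as coloured lines and the median of all as a dotted line. Ratios beyond the axis are counted in the outermost bars, and members with near-equal ratios overlap. The members lie to the right of the dotted line, except that miR-320c lies at it in the wild-type library.

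By the distance between log2 levels centred over the 4 libraries, the 3 of 171 abundant miRNAs most like miR-320b were miR-197-3p (distance 0.03), miR-32-5p (0.11) and miR-320a-3p (0.12). miR-197-3p had 575 RPM in the empty, 785 in the wild-type, 601.5 in the mutant 1 and 661 in the mutant 2 library. miR-877-5p stood at place 15 and miR-484 at place 25 in that order. These distances rest on 4 libraries, and on a division of reads between miR-320b and miR-320a-3p that is uncertain (below).

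The list of 10 other mirtron hairpins was chosen with earlier results of these data known, and 9 of them fill an annotated intron exactly. Of their arms, 15 had reads and 3 had a mean of at least 50. miR-1226-3p, the 3p arm of the DHX30 mirtron, had 37.7 RPM in the empty, 71.4 in the wild-type, 95.2 in the mutant 1 and 79.2 in the mutant 2 library, with log2 ratios of 0.92, 1.34 (1.19 to 1.49) and 1.07 (0.92 to 1.22). It was the only arm of these 3 past 2-fold, in the mutant 1 and mutant 2 libraries; scaled to all miRNA reads its ratios there were 0.96, no longer past 2-fold, and 1.01, and scaled to miR-16-5p they were 0.29 and -0.22. miR-1224-5p had 18.01, 21.8, 20.8 and 20.2 RPM, and miR-1229-3p had 6.50, 7.43, 7.91 and 9.71 RPM. Among all 22 other hairpins that fill an intron exactly, a set taken after the data were seen, 4 arms had that many reads: these 3 and miR-3620-3p, whose log2 ratios on the main scale were 0.26, 0.43 and 0.37.

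Arms were compared within each library, where depth cancels. The 5p arm of miR-320a had 0 of 38909 reads in the empty library, which allows a share of up to 0.00771%, and 4, 9 and 5 reads in the wild-type, mutant 1 and mutant 2 libraries. For miR-877 the 3p arm took 1.28% (Wilson 95% interval 0.994 to 1.65) of reads of both arms in the empty library, 2.47% (2.09 to 2.92) in the wild-type, 1.75% (1.44 to 2.13) in the mutant 1 and 2.04% (1.72 to 2.42) in the mutant 2 library. The wild-type and mutant 2 intervals lay above that of the empty library, the mutant 1 interval overlapped it, and the 3p arm was the minor arm throughout. Counting only reads with both ends within 1 nt of the annotated places changed this: the shares were 11.9% (9.37 to 15.1), 16.9% (14.4 to 19.7), 18.7% (15.5 to 22.3) and 14.8% (12.6 to 17.4), and only the mutant 1 interval lay above that of the empty library. Both hairpins had at least 95% of reads in 1 arm in the empty library, as did 61.6% of 172 hairpins with at least 200 reads in each library, whose median minor arm share was 2.89%. With both ends within 1 nt miR-877 no longer reached 95%, so that 1 of the 2 did, beside 66.2% of 157 hairpins.

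Ends are given as positions from the annotated end. A positive 5p position starts downstream. In the deposited values a positive 3p position was read as a shorter read, which put 100% of 10981 isoforms with a RefSeq length at 18 to 26 nt, the size range kept by the authors, against 93.3% or fewer under the other readings of the 2 signs. The 3p sign is reversed here, so that a positive 3p position extends beyond the annotated 3p end. Precision is the share of reads at the most frequent position over the 4 libraries, for the 4 members with at least 200 reads in each.

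miR-484 started at position 0 in 99.3% of reads in the empty, 99.2% in the wild-type, 99.4% in the mutant 1 and 99.1% in the mutant 2 library. miR-320b started there in 98.9%, 98.99%, 98.6% and 98.8% of reads. miR-320a-3p was less uniform, at 91.4% (91.2 to 91.7), 92.2%, 93.6% and 92.7%, with 6.48% of reads in the empty library at position 1. The mirtron arm miR-877-5p, whose annotated start is the first base of the intron, started there in 93.01% (92.2 to 93.7), 94.0%, 94.7% and 94.3% of reads. It had 0 reads upstream of that base in all 4 libraries, which allows up to 0.0660% in the empty library, and 6.86% of its reads began 1 nt into the intron. Of the 4 members, 1 had no upstream read in any library, beside 19.8% of 283 miRNAs. In the empty library 2 of 4 members (miR-484 and miR-320b) reached 95% at 1 start, beside 64.0% of all. For miR-320b and miR-320a-3p these shares rest on a division of reads that is uncertain (below). No member's start share changed by 5 percentage points, that is 0 of 4 in the wild-type, mutant 1 and mutant 2 libraries, beside 6.01%, 8.48% and 5.65% of all.

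The 3p ends of miR-320a-3p, miR-484 and miR-877-5p were more spread than their 5p starts, and that of miR-320b was not. miR-320a-3p ended at position 0 in 58.2% (57.7 to 58.7) of reads in the empty, 61.3% in the wild-type, 56.1% in the mutant 1 and 58.4% in the mutant 2 library, with position 1 next at 25.6%, 23.3%, 26.7% and 24.9%. miR-484 ended at position -1 in 60.1% (59.04 to 61.2), 58.4%, 54.1% (53.2 to 55.1) and 56.8%. miR-877-5p ended at position 2 in 57.5% (56.0 to 58.9), 54.8%, 52.4% (51.0 to 53.7) and 54.97%. In the empty library 4 of 4 members reached 50% at 1 end, beside 83.7% of all. That count includes miR-320b and miR-320a-3p, whose separate ends are uncertain (below). The share changed by 5 points for 2 of 4 members in the mutant 1 library (miR-484 fell by 5.98 points and miR-877-5p fell by 5.12 points), beside 30.7% of all, and for 0 of 4 in the wild-type and mutant 2 libraries, beside 14.1% and 12.7%.

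As counted, miR-320b ended at position -2 in 99.97% of reads in the empty library. The isoform of 20 nt that starts at position 0 held 98.9% of its reads. miR-320a-3p had 0 reads at position -2 in each library. Whether this sharp end is a trait of miR-320b or comes from how reads were assigned was not tested. A count may be divided between near-identical family members by read length, so the separate levels and ends of miR-320a-3p and miR-320b are uncertain. Summed, they had 81881, 101920, 94405 and 108773 reads in the empty, wild-type, mutant 1 and mutant 2 libraries, of which miR-320b took 52.5%, 54.0%, 51.0% and 52.5%. Among the RefSeq hairpins of miR-320b to miR-320e, 13.8% of the miR-320c reads in the empty library lay in isoforms found in miR-320c alone, and 94 of its 109 reads lay in 1 isoform of 20 nt that also occurs in miR-320b. The level of miR-320c is therefore uncertain too.

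The mean 3p position, a measure chosen after the data were seen, lay further downstream than in the empty library for 4 of 4 members in the mutant 1 library, beside 83.7% of 283 miRNAs. The shift there was 0.175 nt for miR-877-5p, 0.130 for miR-484, 0.0668 for miR-320a-3p and 0.000896 for miR-320b, beside a median of 0.0490 for all. miR-877-5p had 15.6% of reads at position 4 in the mutant 1 library and 11.0% in the empty library. In the wild-type library 1 of 4 members lay further downstream, beside 52.7% of all, and in the mutant 2 library 1 of 4, beside 70.3%. That member was miR-484 in both.

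**Figure D3:**
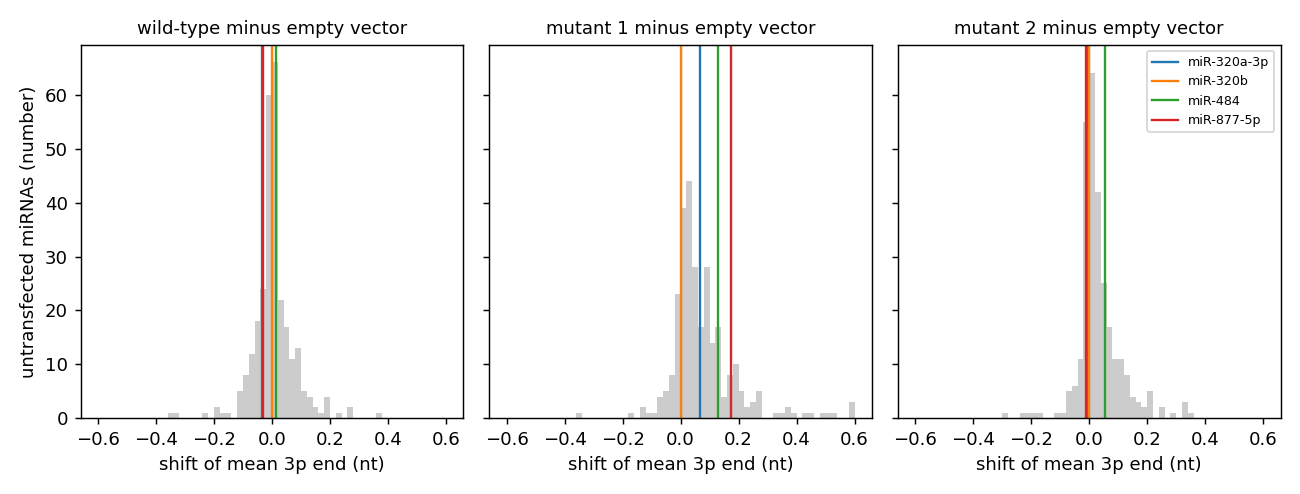
Shift of the mean 3p end from the empty library (nt, positive is downstream) for 283 untransfected miRNAs (grey bars, number of miRNAs), with 4 members as coloured lines. Shifts beyond the axis are counted in the outermost bars. In the mutant 1 library the bars and the members lie mainly to the right of 0.

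The rare members gave coarse profiles. miR-877-3p lay at the last base of the intron in 59 of 59 reads in the empty, 128 of 132 in the wild-type, 95 of 96 in the mutant 1 and 125 of 128 in the mutant 2 library, so both arms of the mirtron had an outer end at a splice site. miR-451a started at position 0 in 19 of 19, 29 of 29, 37 of 38 and 39 of 39 reads. Its 3p end lay at position 1 in 16, 19, 17 and 27 reads and at position 4 in 1, 4, 14 and 10 reads. The share at position 1 was 84.2% (62.4 to 94.5) in the empty, 65.5% (47.3 to 80.1) in the wild-type, 44.7% (30.1 to 60.3) in the mutant 1 and 69.2% (53.6 to 81.4) in the mutant 2 library; the intervals of the wild-type and mutant 2 libraries overlapped that of the empty library and that of the mutant 1 library did not. With 19 to 39 reads a library, miR-451a was below the minimum for end calls, so no background share was set beside it.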

How the data were processed

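The deposited values were counts of reads for each isoform, made by the authors with cutadapt (adapter removal) and Bowtie2 (alignment to hg38), with reads of 18 to 26 nt kept. By the paper's methods, the authors collected reads that aligned unambiguously and allowed mismatches at the 3p end only. A blank cell was taken as 0 reads. Isoform counts were summed by miRNA name in Python 3.11.15, and both arms of every annotated transfected hairpin, with the variants, were left out of the scaling total, leaving 1608 of 1644 names. This set was chosen after seeing the data: the names listed as transfected do not include miR-182-5p and miR-16-1-3p, and leaving out the listed names only was kept as an alternative. Ratios had normal intervals on the log scale and shares had Wilson intervals, at a confidence level of 95%. Other scalings used edgeR 4.0.16 and DESeq2 1.42.0 on the counts. A count of 0 was given an upper limit of 3 counts. The calculations were tested on simulated data. Named miRNAs were the members, miR-320e, 10 other mirtrons, the 3 miRNAs nearest to the most abundant member among those averaging 1000 reads or more, and miR-16-5p. Also named was miR-3620-3p, from the hairpins that fill an intron exactly, a set taken after the data were seen. The members and lists were chosen with earlier results of these data known. Mean 3p positions, upstream reads and the arm background were added after seeing the data. Markers were given as levels for colon epithelium, erythroid, white blood, liver, muscle and neuronal lists; the erythroid list summed to 10.3 RPM in the empty library, the untransfected white blood list to 3.36 and the neuronal list to 0.523.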

Additional observations from a re-analysis of the deposited data

How the results depend on the processing

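With 1 library in each group no library could be left out, and no paired analysis was possible because each group had 1 library. Values below are counts of members unless stated, and the causes were not tested. The 1 member past 2-fold in the wild-type library became 0 when scaled to all miRNA reads or to miR-16-5p, at a minimum of 200 mean reads, and with mutant 2 as the reference. Of all miRNAs, 1.47% passed when scaled to all miRNA reads, 0.322% at a minimum of 200 and 0.840% with mutant 2 as the reference. At a minimum of 200 that member, miR-877-3p, was no longer tested. In the mutant 1 library 0 became 1 at 1.5-fold, and in the mutant 2 library 0 became 5 when scaled to miR-16-5p and 1 at 1.5-fold, where 21.2% (mutant 1) and 9.45% (mutant 2) of all miRNAs passed. With scaling to miR-16-5p, 43.7%, 57.1% and 78.8% of all 476 miRNAs passed 2-fold (wild-type, mutant 1, mutant 2). In the mutant 1 library 19 miRNAs passed in the main setting, 20 with TMM, 20 with DESeq2, 52 when scaled to all miRNA reads, and 48 with only the listed transfected names left out, an alternative chosen after seeing the data.

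The 2 members with a precise 5p start became 4 at a limit of 90% (75.3% of all) and 1 at 99% (32.2% of all). The 4 with a precise 3p end became 2 at a limit of 60% (61.8% of all) and 1 at the annotated end (150 of 283). The 2 with a changed 3p share in the mutant 1 library became 0 at 10 percentage points (8.48% of all) and 0 at the annotated end (22.6% of all). The 3p arm share of miR-877 moved to 2.34%, 4.48%, 3.30% and 3.67% (empty, wild-type, mutant 1, mutant 2) for the most abundant isoform of each arm, and to 11.9%, 16.9%, 18.7% and 14.8% with both ends within 1 nt, where the most frequent 5p arm isoform is left out and the order of the libraries changed. There the 2 hairpins with 95% of reads in 1 arm became 1, for alternatives set beside that count after seeing the data. With only reads at the annotated start, an alternative chosen after seeing the data, 2 members in place of 1 had a mean 3p end further downstream in the wild-type library (50.2% of all). The other 76 recomputed counts and shares stayed within 1.5-fold of the main count or inside its interval, while 72 log2 ratios of single members left their counting interval and 63 did not. The sign changed for 17 of 18 ratios when scaled to miR-16-5p, 7 of 18 when scaled to all miRNA reads, 6 of 18 with only the listed names left out, 5 of 12 with mutant 2 as the reference, 1 of 18 with TMM and 1 of 18 with DESeq2. The 1 called ratio, of miR-877-3p in the wild-type library, was not among these.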
